A study of Mus musculus with 18 samples.

Results

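The comparison of left ventricle in late pregnancy (LP) with that of non-pregnant sedentary mice (NP/Sed) rested on 6 of the 18 arrays of the series, 3 per group, taken by the group that each array's label names. All mice were wild type C57Bl/6 females aged 3 to 4 months. NP/Sed mice were virgins in diestrus, and LP mice were at gestation day 18 to 19. Mid-pregnancy (MP, gestation day 11) and the first 12 hours after birth (0PP), with 3 arrays each, were used to test where LP differed from the time points on either side of it. The 6 arrays of wheel-running mice entered only the shared estimate of the spread. Each array carried RNA pooled from 2 to 3 hearts, so the replicate was a pool of animals and a p-value measured the spread between pools. An array has no read depth, and 3 arrays per group limit the precision of every value below.

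The maternal heart enlarges during pregnancy under a larger blood volume and a changed hormone supply. Progesterone, estrogens, glucocorticoids and placental lactogens circulate at high levels late in rodent pregnancy, and maternal tissues turn towards lipid fuels while glucose is passed to the fetuses. The glucocorticoid and progesterone receptors are closely related transcription factors that bind the same kind of DNA element, so that many target genes answer to both. The ventricle itself is made of contracting cardiomyocytes, which hold most of its RNA, together with endothelial cells, fibroblasts, mural cells, resident macrophages and some fat cells around the vessels.

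Values are log2 RMA signals, in which each unit stands for a factor of 2, and values given for a gene are those of the probe set with its highest mean over the 18 arrays. A gene was called where a probe set had an adjusted p under 0.05 and changed at least 1.75-fold, which is 0.807 on the log2 scale. In LP against NP/Sed, 77 of 18193 genes were called at 1 or more of their probe sets (0.423% of genes), of which 64 were higher and 13 lower in LP. At the probe set of highest mean 66 genes were called (0.363%), 57 higher and 9 lower, and in all 66 the LP arrays lay wholly above or below the NP/Sed arrays, which they did in 18.7% of all genes. With the adjusted p alone, 429 genes passed, 328 of them higher (1.8%) and the others lower (0.555%) in LP, while the median over all genes was 0.01. All counts of list members against NP/Sed below are to be read beside these 2 shares. The lists were chosen with earlier results of these data known. A list's share above these 2 therefore describes its members and does not test the list. The count of 77 went to 46 without NP/Sed array 3 and to 129 without LP array 2, and it went to 23 when the 3' minus 5' signal of Gapdh and actin, a sign of RNA quality, was added as a covariate. That signal was close between the groups, at a mean of 0.01 ± 0.09 (SD, n = 3) in NP/Sed and -0.03 ± 0.02 in LP for Gapdh, and 1.21 ± 0.13 and 1.24 ± 0.06 for actin. Its part in the results was not tested beyond that fit. Of 85 genes chosen for naming that passed the adjusted p threshold, 36 passed it in every fit that left out 1 array. Genes that passed at only 1 of several probe sets include Fkbp5, Cebpd, Angptl4, Car3 and Cyp1b1 (of 3, 2, 2, 4 and 3). Their smallest differences over the probe sets were 0.09, 0.12, 0.19, 0.11 and 0.08. Nfkbiz passed at 1 of 3, with differences from -0.0082 to 0.81.

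LP array 3 was the most displaced of the LP arrays. Of the 57 genes called higher it was the highest LP array in 45, and of the 9 called lower it was the lowest in all 9, whereas LP array 2 was the lowest LP array in 41 of the 57. NP/Sed array 3, without which the count of 77 went to 46, was the lowest NP/Sed array in 37 of the 57. The mean absolute difference between LP array 3 and the other 2 LP arrays was 0.164 and 0.166 per probe set, against 0.135 between those 2. The same distances ran from 0.150 to 0.176 within NP/Sed, so LP array 3 was no farther from its group than the NP/Sed arrays were from each other.

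**Figure D1:**
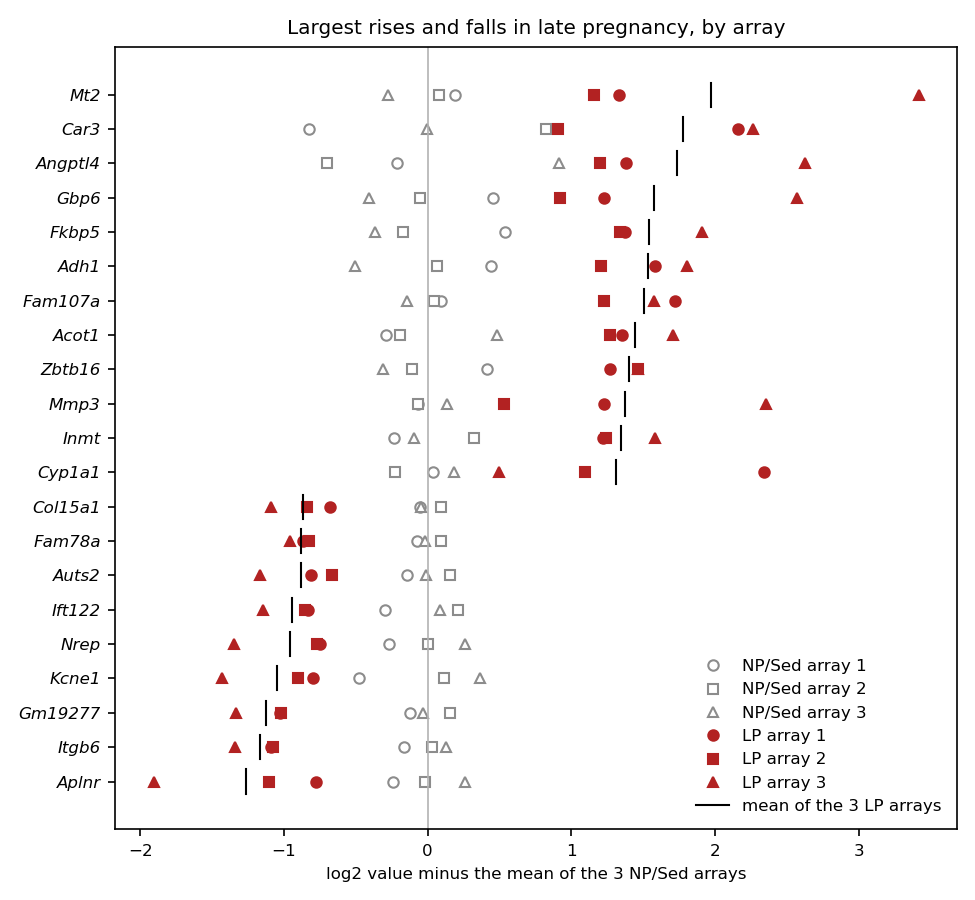
Each array's log2 value minus the mean of the 3 NP/Sed arrays (x axis) for the 12 largest rises and all 9 falls called in LP (y axis), with NP/Sed arrays open and grey, LP arrays filled and red, array numbers by shape, and the LP mean as a bar. In every gene the red points lie beyond the grey ones, which was a condition of choice that all 66 called genes met. LP array 3 (triangles) is the most displaced for Mt2, Gbp6 and Mmp3. For Mt2 its log2 signal was 12.84, beside an NP/Sed mean of 9.42.

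Targets of the glucocorticoid and progesterone receptors were the list with the largest median rise. Of 27 listed genes with a probe set, 11 were higher at an adjusted p under 0.05 and none was lower (40.7% higher, against 1.8% of all genes), and their median difference was 0.59. Since this list too was chosen with earlier results known, its share and its rank are descriptions and not tests. Fkbp5, a co-chaperone that binds both receptors and is induced by them, was at 7.25, 6.54 and 6.35 on NP/Sed arrays 1 to 3 and at 8.09, 8.05 and 8.63 on LP arrays 1 to 3. The lowest LP array was above the highest NP/Sed array, and the difference was 1.54 ± 0.22 (SE, adjusted p = 0.0016 by limma). Zbtb16, a zinc finger transcription factor, was at 8.77, 8.24 and 8.04 and 9.62, 9.82 and 9.81. Its LP arrays lay close together and the groups did not overlap (difference 1.40 ± 0.30, adjusted p = 0.0196).

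Fam107a, an actin-associated stress-response gene, was at 6.32, 6.27 and 6.08 on the NP/Sed arrays and 7.95, 7.45 and 7.80 on the LP arrays, with no overlap (difference 1.51 ± 0.24, adjusted p = 0.00311). Map3k6, a stress-activated kinase, gave 6.21, 6.19 and 5.72 against 6.81, 6.84 and 7.32, again without overlap (0.95 ± 0.17, adjusted p = 0.00553). Cebpd, a transcription factor of acute phase and fat cell genes, rose by 1.16 ± 0.25 (adjusted p = 0.0198), Slc10a6, a transporter of sulfated steroids, by 1.18 ± 0.28 (adjusted p = 0.0363), and Glul, the glutamine synthetase, by 0.59 ± 0.08 (adjusted p = 0.00146). For Slc10a6 the LP arrays were uneven at 6.09, 5.72 and 7.39, with array 3 far above the others, while NP/Sed was tight at 5.34, 5.10 and 5.23. Per1, which belongs to the clock as well, rose by 0.80 ± 0.19 (adjusted p = 0.0359).

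Other members gave no call. Sgk1, a kinase that regulates sodium transport, differed by 0.62 ± 0.18 (adjusted p = 0.101), Tsc22d3, an anti-inflammatory leucine zipper protein, by 0.47 ± 0.14 (adjusted p = 0.116), and Klf9, a receptor-induced transcription factor, by 0.24 ± 0.08 (adjusted p = 0.167). The receptor genes were not past the threshold, with Nr3c1, the glucocorticoid receptor, at 0.01 ± 0.11 (adjusted p = 0.988) and Pgr, the progesterone receptor, at -0.13 ± 0.09 (adjusted p = 0.579) around a low signal of 3.84, 3.90 and 3.82 in LP. Over the fits that left out 1 array the count of risen members ran from 6, without NP/Sed array 3 or LP array 1, to 13 without LP array 2. It was 5 with only the 2 groups in the fit and 2 with the RNA quality covariate. In every fit that left out 1 array Fkbp5, Fam107a, Map3k6, Glul and Mt2 stayed under an adjusted p of 0.05. Fam107a, Map3k6 and Mt2 were above it with the covariate (limma adjusted p = 0.0874, 0.118 and 0.125), and Mt2 also with only the 2 groups (0.136). Zbtb16 and Cebpd passed it in none of the fits without NP/Sed array 2, NP/Sed array 3, LP array 1 or LP array 3 (up to 0.114 and 0.131). Per1 did not pass it without NP/Sed array 1, NP/Sed array 3, LP array 1 or LP array 3 (up to 0.207), and Slc10a6 kept it only without LP array 2 (up to 0.122 otherwise). Without LP array 3 the difference of Slc10a6 went to 0.68.

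Against MP and 0PP these targets mostly did not differ by a test. Only 3 of the 27 were higher in LP than in MP (11.1%, against 1.01% of all genes) and 3 higher than in 0PP (11.1%, against 0.462%), with medians of 0.04 and 0.42. Fkbp5 was at 7.88, 7.99 and 8.30 on the MP arrays and 8.03, 7.14 and 7.84 on the 0PP arrays, so the LP arrays overlapped MP and lay just above 0PP. Its LP minus MP difference was 0.20 (adjusted p = 0.745) and its LP minus 0PP difference 0.59 (adjusted p = 0.33). The comparisons of LP with NP/Sed, MP and 0PP share the LP arrays and are not independent of each other.

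Metallothioneins, small proteins that bind zinc and copper and are induced by metals and by glucocorticoids, gave the largest rise among the called genes. Mt2 was at 9.61, 9.50 and 9.14 on the NP/Sed arrays and 10.75, 10.58 and 12.84 on the LP arrays. LP array 3 stood far above the other 2 LP arrays, which were themselves above every NP/Sed array. The difference was 1.97 ± 0.36 (adjusted p = 0.00741) and 1.25 without LP array 3. Mt1, the neighbouring gene, was at 12.21, 12.03 and 11.93 and 12.68, 12.62 and 13.70, with the same array highest and no overlap (difference 0.94 ± 0.18, adjusted p = 0.0108, and 0.0654 without NP/Sed array 3). Without LP array 3 this difference went to 0.59. Of 14 genes of metallothioneins and zinc transport 3 rose (21.4%), the third being Slc30a1, the zinc exporter of the plasma membrane, by 0.35 ± 0.07 (adjusted p = 0.0176, and up to 0.0886 without NP/Sed array 3 or LP array 1). The list's median was 0.06, and its count went to 1 without NP/Sed array 3. For Mt2 the LP minus MP difference was 1.18 (adjusted p = 0.121) and the LP minus 0PP difference 0.83 (adjusted p = 0.436).

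Promoter windows are shown for 2 groups among the called genes, the 2 metallothioneins and 3 risen receptor targets. Only windows that hold the letters marked below were shown, so a match in them was a ground of choice and not a result. They are RefSeq windows on GRCm38.p6 from 250 bases before to 50 bases after the annotated start, written 5′ to 3′ on the gene's strand. In Mt1 (chr8:94178839-94179138, plus strand) and Mt2 (chr8:94172368-94172667, plus strand) capitals mark the core of the metal response element, TGCGCNC or TGCACNC on either strand, which begins at -23, 2 and 20 from the start of Mt1 and at -223, -128, -50 and 4 from that of Mt2. In 1 window of Fam107a (chr14:8309730-8310029, minus strand), Map3k6 (chr4:133240568-133240867, plus strand) and Slc10a6 (chr5:103629354-103629653, minus strand) capitals mark ACANNNTGT, the paired half-sites read by the glucocorticoid and progesterone receptors, which begin at -116, -179 and -161.
Mt1: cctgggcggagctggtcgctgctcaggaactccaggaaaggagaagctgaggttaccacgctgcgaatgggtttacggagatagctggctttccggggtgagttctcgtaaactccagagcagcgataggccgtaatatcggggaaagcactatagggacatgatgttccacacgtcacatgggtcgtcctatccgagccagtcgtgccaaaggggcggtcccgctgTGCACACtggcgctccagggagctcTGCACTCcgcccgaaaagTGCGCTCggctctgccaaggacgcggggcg
Mt2: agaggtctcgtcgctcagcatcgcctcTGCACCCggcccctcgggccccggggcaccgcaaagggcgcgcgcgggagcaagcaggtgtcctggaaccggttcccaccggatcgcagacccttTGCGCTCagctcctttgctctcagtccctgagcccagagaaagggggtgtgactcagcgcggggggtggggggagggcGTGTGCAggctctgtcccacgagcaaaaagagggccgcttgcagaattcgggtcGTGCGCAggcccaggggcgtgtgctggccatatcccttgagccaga
Fam107a: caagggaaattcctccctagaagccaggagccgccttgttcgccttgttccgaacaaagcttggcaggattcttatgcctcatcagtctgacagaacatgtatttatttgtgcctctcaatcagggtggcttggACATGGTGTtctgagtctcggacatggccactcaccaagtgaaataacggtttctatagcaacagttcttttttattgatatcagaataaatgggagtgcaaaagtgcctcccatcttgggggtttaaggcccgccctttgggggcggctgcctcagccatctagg
Map3k6: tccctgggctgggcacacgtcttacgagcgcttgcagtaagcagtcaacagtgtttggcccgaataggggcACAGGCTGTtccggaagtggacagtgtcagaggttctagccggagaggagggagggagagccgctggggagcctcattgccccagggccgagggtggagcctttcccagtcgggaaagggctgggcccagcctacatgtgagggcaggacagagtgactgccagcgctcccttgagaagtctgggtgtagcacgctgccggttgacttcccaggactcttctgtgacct
Slc10a6: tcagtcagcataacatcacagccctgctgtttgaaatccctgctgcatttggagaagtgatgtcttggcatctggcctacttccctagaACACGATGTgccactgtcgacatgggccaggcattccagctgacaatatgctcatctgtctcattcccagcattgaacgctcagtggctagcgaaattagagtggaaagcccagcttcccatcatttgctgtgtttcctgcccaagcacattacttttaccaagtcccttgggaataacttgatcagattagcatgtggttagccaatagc

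These letters are common in promoters, so their share over all windows is given beside them. Of the 57 genes called higher at the probe set of highest mean 45 had a window, and ACANNNTGT was in 9 of them (20.0%) and in 7.90% of the 27025 genes with a window. The 9 were Acot1, Fam107a, Map3k6, Mid1ip1, Mt1, Npr3, Slc10a6, Txnip and 4930481A15Rik. Fkbp5, whose rise was among the largest, was without a match in its window. The metal response core was in 15 of the 45 (33.3%, against 28.2% of all genes with a window), the xenobiotic response core GCGTG in 18 (40%, against 35.2%) and the E-box CACGTG of the clock factors in 4 (8.89%, against 8.09%). The D-box TTATGTAA was in 2 (Coq10b and Ptgds, against 1.11% of genes), the κB core GGANTTTCC in 1 (against 1.45%), and GGTCANAGG, a core of the elements bound by PPAR receptors, in none (against 2.02%). These 7 motifs were searched on both strands, the E-box can overlap the xenobiotic core, and a match describes letters only. Of the 9 fallen genes 4 had a window, and none of those held ACANNNTGT.

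Genes of fatty acid and ketone use were raised in LP. Of 32 genes 11 were higher at an adjusted p under 0.05 (34.4%) and none lower, with a median of 0.31. Angptl4, a secreted inhibitor of lipoprotein lipase that is induced by fatty acids and by glucocorticoids, was at 7.09, 6.61 and 8.23 on the NP/Sed arrays and 8.69, 8.51 and 9.93 on the LP arrays. The highest NP/Sed array, array 3, came close to the lowest LP array without overlap, and the difference was 1.73 ± 0.39 (adjusted p = 0.0283). It missed the threshold without NP/Sed array 1, NP/Sed array 2, LP array 1 or LP array 3 (adjusted p up to 0.141). Acot1, which splits fatty acyl-CoA in the cytosol, was at 6.88, 6.97 and 7.64 and 8.52, 8.43 and 8.87, with every LP array above every NP/Sed array (1.44 ± 0.21, adjusted p = 0.00156, at most 0.01 in any fit without 1 array). Acot1 and Acot2 are near copies whose probes may cross-hybridise.

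Enzymes of the oxidation pathway itself moved by less. Ehhadh, the bifunctional enzyme of peroxisomes, was at 6.88, 6.74 and 7.05 and 7.58, 7.60 and 7.53, with LP arrays in a narrow band above all others (0.68 ± 0.11, adjusted p = 0.00352). Decr1, which prepares unsaturated fatty acids for oxidation, was at 11.60, 11.62 and 11.71 and 12.11, 12.10 and 12.23 (0.50 ± 0.07, adjusted p = 0.00146), and the groups were apart in the same way. Acot2 rose by 0.69 ± 0.10, Plin5, which ties lipid droplets to mitochondria, by 0.66 ± 0.11, and Cpt2, the inner carnitine palmitoyltransferase, by 0.40 ± 0.07 (adjusted p = 0.0016, 0.00388 and 0.00718). Hadha, Mlycd, Eci1 and Eci2, further enzymes of this pathway, rose by 0.33, 0.35, 0.28 and 0.34 (adjusted p = 0.0209, 0.0474, 0.0279 and 0.022). Mlycd missed the threshold in each of the 6 fits without 1 array (up to 0.16), Eci1 held only without LP array 2 (up to 0.11), and Hadha and Eci2 missed the threshold without NP/Sed array 2, LP array 1 or LP array 3 (up to 0.0968 and 0.097). Not past the threshold were Pdk4, the kinase that shuts glucose carbon out of the mitochondrion (difference 0.92 ± 0.30, adjusted p = 0.152), Ucp3 (0.53 ± 0.20, adjusted p = 0.219), and the regulators Ppara (-0.30 ± 0.15, adjusted p = 0.41) and Ppargc1a (-0.43 ± 0.24, adjusted p = 0.46). Pdk4 varied widely among NP/Sed arrays, at 12.23, 11.54 and 12.65, beside 12.99, 12.73 and 13.44 in LP. The list's count ran from 6, without NP/Sed array 2, LP array 1 or LP array 3, to 11 over the fits without 1 array. It was 3 with the RNA quality covariate, 5 with only the 2 groups in the fit, 7 by Cyber-T and 15 after median centring.

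The direct tests against the neighbouring time points gave more fatty acid genes than the test against NP/Sed. In LP 18 of the 32 were higher than in MP (56.2%, against 1.01% of all genes) and 12 higher than in 0PP (37.5%, against 0.462%), with none lower in either and medians of 0.34 and 0.22. Angptl4 was at 7.37, 6.57 and 6.72 in MP and 6.36, 6.66 and 7.60 in 0PP, all below the lowest LP array. It was higher in LP by 2.16 than in MP (adjusted p = 0.00798) and by 2.17 than in 0PP (adjusted p = 0.0111). Ehhadh, at 6.63, 6.46 and 6.36 in MP and 6.37, 6.40 and 6.71 in 0PP, was higher in LP by 1.09 and 1.08 (adjusted p = 7.64e-05 and 0.000121). Pdk4 was higher in LP than in MP by 1.26 and than in 0PP by 1.44 (adjusted p = 0.0431 and 0.0259), and Ucp3 by 1.13 and 1.34 (adjusted p = 0.00642 and 0.00263). Decr1 exceeded MP by 0.48 (adjusted p = 0.00204), but not 0PP by this test (0.16, adjusted p = 0.428).

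Genes of xenobiotic and steroid metabolism made up the third group of rises, with 12 of 41 higher (29.3%), none lower and a median of 0.21. Adh1, an alcohol dehydrogenase that also oxidises retinol, was at 7.05, 6.68 and 6.11 on the NP/Sed arrays and 8.20, 7.82 and 8.42 on the LP arrays, without overlap (1.53 ± 0.20, adjusted p = 0.00108). Inmt, which methylates indolamines and other amines, was at 6.02, 6.58 and 6.16 and 7.48, 7.50 and 7.84, and Fmo2, a flavin monooxygenase, at 8.05, 8.12 and 7.82 and 8.99, 9.15 and 9.24. For both, each LP array was above each NP/Sed array, with differences of 1.35 ± 0.18 and 1.13 ± 0.18 (adjusted p = 0.000958 and 0.00329). Sult1a1, a sulfotransferase of phenols and steroids, rose by 1.13 ± 0.17 (adjusted p = 0.00179) and Cyp4b1, a fatty acid and xenobiotic hydroxylase, by 0.88 ± 0.12 (adjusted p = 0.00119).

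Cyp1a1, the classical target of the aryl hydrocarbon receptor, was uneven in LP. It was at 5.07, 4.81 and 5.21 on the NP/Sed arrays and 7.37, 6.12 and 5.53 on the LP arrays, so that LP array 1 stood far above the others while LP array 3 was only just past NP/Sed. Its difference of 1.31 ± 0.31 (adjusted p = 0.0373) went to 0.80 (adjusted p = 0.144) without LP array 1 and also missed the threshold without each of the NP/Sed arrays in turn. Cyp1b1, another target, was at 6.10, 5.88 and 6.11 and 6.64, 6.44 and 7.56, with LP array 3 highest (0.85 ± 0.20, adjusted p = 0.0373), and it kept the threshold only where LP array 2 was left out. Its difference went to 0.51 without LP array 3. Ahr, the receptor itself, was higher by 0.77 ± 0.16 (adjusted p = 0.0192, and up to 0.102 without NP/Sed array 3, LP array 1 or LP array 3). Hsd11b1, which turns inactive into active glucocorticoid, rose by 0.71 ± 0.14 (adjusted p = 0.00947), a difference that went to 0.47 without LP array 3 (adjusted p = 0.0136). It was not past the threshold with only the 2 groups in the fit or with the RNA quality covariate (adjusted p = 0.141 and 0.133). The list's count ran from 6, without NP/Sed array 3 or LP array 1, to 13 without LP array 2, and was 5 with only the 2 groups in the fit and 3 with the RNA quality covariate.

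Of these genes, Inmt and Fmo2 were also called in LP against both neighbouring time points. Inmt was at 7.04, 6.26 and 6.36 on the MP arrays and 6.23, 6.38 and 6.24 on the 0PP arrays, all below the LP arrays, with LP higher by 1.05 and 1.32 (adjusted p = 0.00496 and 0.00141). Fmo2 was higher in LP by 1.20 than in MP and by 1.03 than in 0PP (adjusted p = 0.00289 and 0.0107). Adh1 differed by 0.48 from MP (adjusted p = 0.302) and by 0.83 from 0PP (adjusted p = 0.0648), neither past the threshold.

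**Figure D2:**
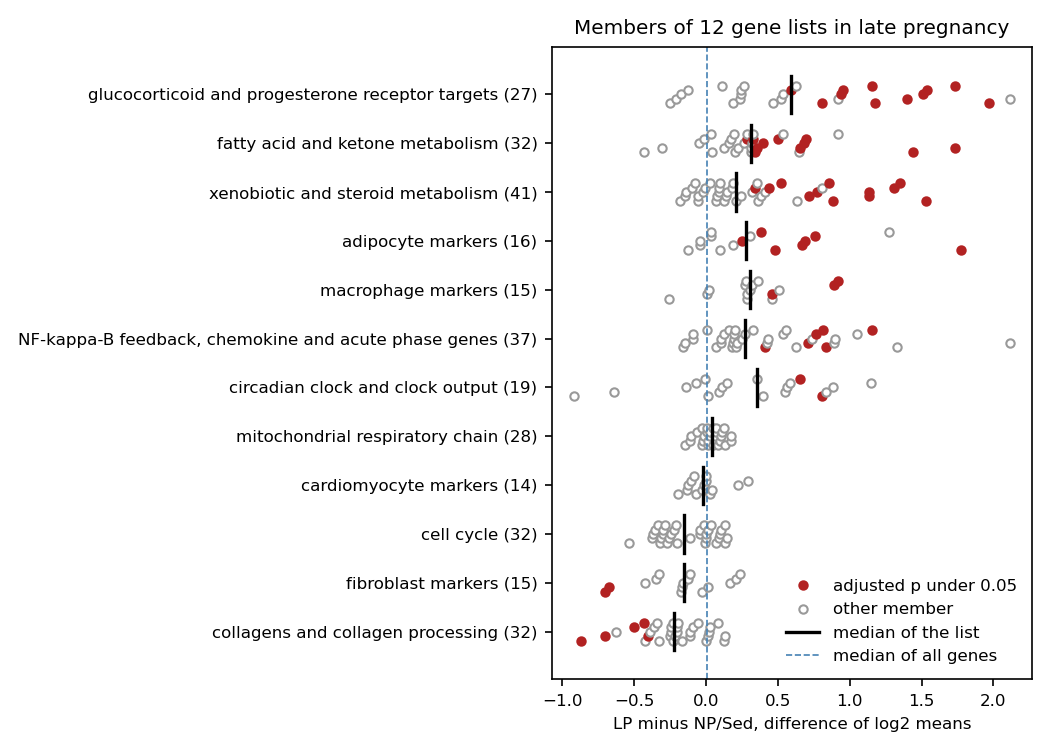
LP minus NP/Sed log2 difference (x axis) of each member of 12 gene lists (y axis, with the number of members that have a probe set), filled red where the adjusted p was under 0.05, with the list's median as a bar and the median of all genes as a dashed line. Receptor targets, fatty acid genes and xenobiotic genes lie to the right, with 11, 11 and 12 red members, collagens lie to the left with 5, and the respiratory chain and cardiomyocyte markers lie around 0 with none.

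A part of the collagen genes fell in LP. Of 32 genes of collagens and collagen processing 5 were lower (15.6%, against 0.555% of all genes) and none higher, with a median of -0.23. Col15a1, a collagen of the muscle and vessel basement membrane zone, was at 8.36, 8.51 and 8.36 on the NP/Sed arrays and 7.73, 7.57 and 7.32 on the LP arrays. No array of one group reached the other, and the difference was -0.87 ± 0.12 (adjusted p = 0.00146). Col3a1, a main fibrillar collagen of the heart, was at 11.61, 11.31 and 11.49 and 10.94, 10.73 and 10.62, likewise apart (-0.71 ± 0.13, adjusted p = 0.00767). At a dimmer probe set Col3a1 also passed the fold limit and was called lower (-1.02 ± 0.16, limma adjusted p = 0.00243). Col4a4 and Col4a1, chains of basement membrane collagen, were lower by -0.50 ± 0.11 and -0.41 ± 0.10 in LP minus NP/Sed (adjusted p = 0.0197 and 0.0428), and Loxl1, a crosslinking enzyme, by -0.43 ± 0.09 (adjusted p = 0.0248). Col1a1 and Col1a2, the chains of the most abundant fibrillar collagen, gave -0.42 ± 0.13 and -0.33 ± 0.10 at their probe sets of highest mean. Neither was past the threshold there (adjusted p = 0.128 and 0.1). Col1a1 passed the adjusted p threshold at its other probe set, with a difference of -0.76, and Col1a2 at none of its 3.

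Over the fits without 1 array the count of lower collagen genes ran from 2, without NP/Sed array 1 or 3, to 4. It was 1 with the RNA quality covariate, where Col3a1 missed the threshold (adjusted p = 0.0535), 3 with only the 2 groups in the fit and 7 after a repeated quantile normalization. In each fit without 1 array Col15a1 and Col3a1 stayed under the threshold, at up to 0.00976 and 0.0465. Col4a4 missed it without NP/Sed array 1, NP/Sed array 3 or LP array 3, Loxl1 passed it only without LP array 3, and Col4a1 only without NP/Sed array 2 (up to 0.0908, 0.0929 and 0.123). Against MP 17 of the 32 were lower in LP (53.1%, against 0.901% of all genes) and against 0PP 12 (37.5%, against 0.868%), with medians of -0.44 and -0.41 and none higher. Col3a1 was at 11.59, 12.04 and 11.73 on the MP arrays and 11.63, 11.62 and 11.28 on the 0PP arrays, all above the LP arrays, with differences of -1.03 and -0.75 (adjusted p = 0.000682 and 0.00811). Col1a1 was lower in LP than in MP by -0.91 in LP minus MP (adjusted p = 0.00192). In bulk tissue, fewer cells of a type and less RNA per cell cannot be told apart. The fibroblast markers, of which 3 are collagens, had 2 of 15 members lower and none higher (13.3%), with a median of -0.16, and their summed signal overlapped between the groups, at 14.44 to 14.68 in NP/Sed and 14.48 to 14.61 in LP.

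Proteases and inhibitors of the matrix moved in both directions. Of 36 genes 4 rose (11.1%) and 1 fell (2.78%). Mmp3, stromelysin, was at 4.66, 4.65 and 4.86 on the NP/Sed arrays and 5.95, 5.25 and 7.08 on the LP arrays, where array 2 lay near NP/Sed and array 3 far above it (1.37 ± 0.28, adjusted p = 0.0159). Timp4, the metalloproteinase inhibitor most typical of the heart, was at 8.39, 8.004 and 7.66 and 9.45, 9.32 and 9.12, with no overlap (1.28 ± 0.24, adjusted p = 0.00939), and it was higher in LP than in 0PP by 1.11 (adjusted p = 0.0359). Adamts1, a protease that cleaves proteoglycans, rose by 0.96 ± 0.17 (adjusted p = 0.00681) and Thbs2, a matricellular protein, by 0.54 ± 0.11 (adjusted p = 0.0116), while Mmp2, the gelatinase of fibroblasts, fell by 0.42 ± 0.09 (adjusted p = 0.0218). Without NP/Sed array 3 Mmp3, Timp4 and Thbs2 missed the threshold (adjusted p = 0.0525, 0.0695 and 0.078), and the list had 1 risen member. Mmp2 missed it without NP/Sed array 1, NP/Sed array 3, LP array 1 or LP array 2 (up to 0.0892), Mmp3 without NP/Sed array 2 as well, Timp4 without LP array 1, and Thbs2 without LP array 3. The difference of Mmp3 went to 0.88 without LP array 3.

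**Figure D3:**
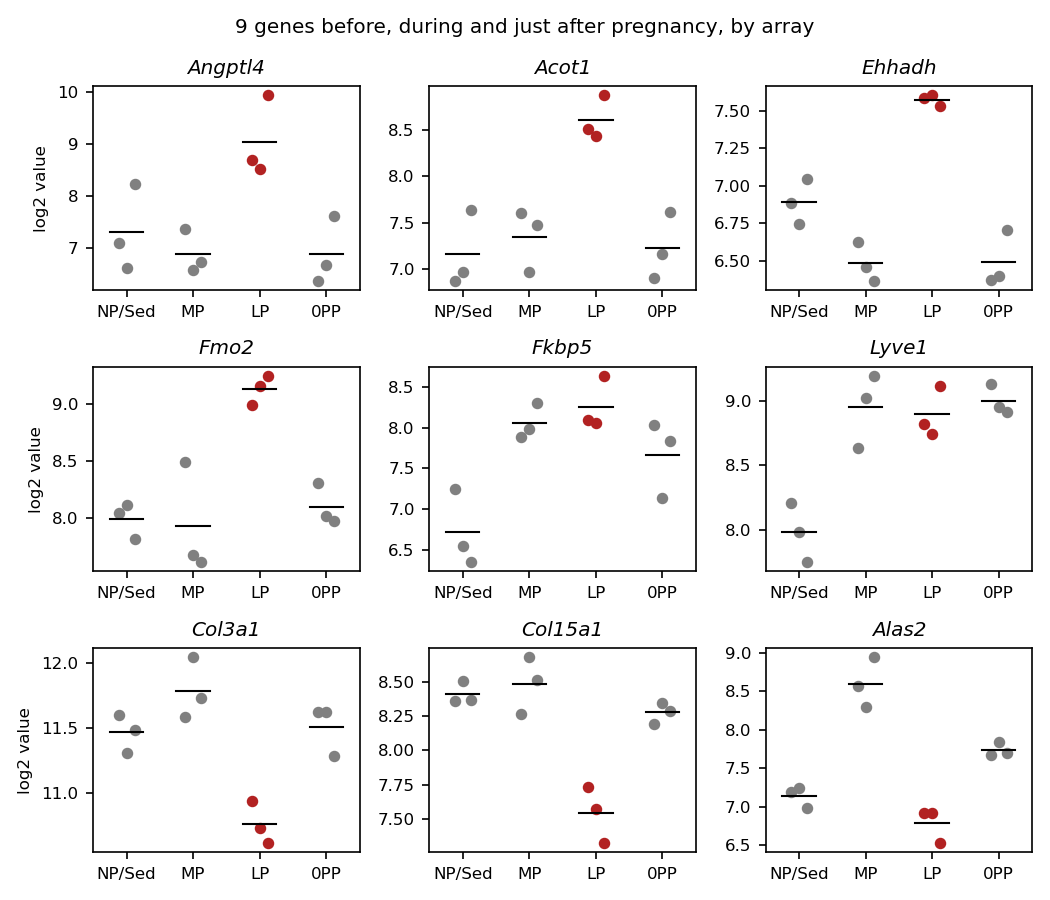
The log2 value (y axis, own scale in each panel) of 9 genes on every array of NP/Sed, MP, LP (red) and 0PP (x axis), with group means as bars. Angptl4, Acot1, Ehhadh and Fmo2 are highest and Col3a1 and Col15a1 lowest on the LP arrays, with Angptl4 at 8.51 to 9.93 in LP, whereas the LP arrays of Fkbp5 and Lyve1 overlap those of MP, and Alas2 stands out in MP.

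Some fat cell genes rose in LP, with 7 of 16 adipocyte markers higher (43.8%) and none lower, and a median of 0.28. Car3, a carbonic anhydrase abundant in fat and slow muscle, was at 5.76, 7.41 and 6.58 on the NP/Sed arrays and 8.74, 7.49 and 8.85 on the LP arrays. LP array 2 was barely above the highest NP/Sed array, and the difference of 1.78 ± 0.45 was at the threshold itself (adjusted p = 0.0499), which it missed without NP/Sed array 1, NP/Sed array 3, LP array 1 or LP array 3. Pparg, the regulator of fat cell formation, was at 6.72, 6.55 and 6.59 and 7.26, 7.17 and 7.48, a narrow and separate band in each group (0.69 ± 0.10, adjusted p = 0.00193). Lipe, the hormone-sensitive lipase, rose by 0.76 ± 0.17, Thrsp, a lipogenic nuclear protein, by 0.67 ± 0.10, and Plin4, a lipid droplet coat protein, by 0.48 ± 0.09 (adjusted p = 0.0248, 0.00243 and 0.00886). Lipe has 2 probe sets, and they disagreed in direction. It missed the threshold without NP/Sed array 2, NP/Sed array 3 or LP array 3 (up to 0.112), and Plin4 without NP/Sed array 2 (0.0513).

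Among the other adipocyte markers, Adipoq and Lep did not pass the test. Adipoq, adiponectin, was at 3.27, 4.22 and 3.87 and 5.57, 4.18 and 5.42, overlapping and low (1.27 ± 0.43, adjusted p = 0.169), and Lep, leptin, differed by -0.04 ± 0.09 (adjusted p = 0.904). On the MP arrays Adipoq was at 7.42, 6.27 and 5.05 and Car3 at 10.22, 9.26 and 8.44, and the LP minus MP differences of -1.19 and -0.94 were not past the threshold (adjusted p = 0.205 and 0.361). The summed signal of the adipocyte markers was 14.995 to 15.04 in NP/Sed and 15.14 to 15.20 in LP, without overlap. Lpl alone made up 58.7% of this sum in NP/Sed. Without Lpl the sums were 13.72 to 13.75 and 13.99 to 14.10, still apart, but Fabp4, another bright member, remained in them. The sums without both genes were not tested. Several markers, Fabp4 and Pparg among them, are also expressed by endothelial cells and macrophages. The part of fat tissue in the fatty acid rises was not tested. The count of 7 went to between 3, without NP/Sed array 2 or LP array 3, and 5 in the fits without 1 array, to 2 with only the 2 groups in the fit and to 1 with the RNA quality covariate.

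Macrophage and inflammatory genes rose in part. Of 15 macrophage markers 3 were higher (20.0%) and none lower, with a median of 0.31. Cd163, the scavenger receptor for haemoglobin that glucocorticoids induce in macrophages, was at 7.44, 7.24 and 7.02 on the NP/Sed arrays and 8.17, 8.03 and 8.16 on the LP arrays, clearly apart (0.89 ± 0.11, adjusted p = 0.000917). Lyve1, a hyaluronan receptor of resident macrophages and lymphatic vessels, was at 8.21, 7.98 and 7.75 and 8.83, 8.75 and 9.12 (0.92 ± 0.14, adjusted p = 0.00199), and F13a1, a coagulation factor subunit made by macrophages, rose by 0.46 ± 0.08 (adjusted p = 0.00718). The other markers of this cell type gave no call, with Adgre1 at 0.31 ± 0.13 and Csf1r at 0.01 ± 0.08 (adjusted p = 0.314 and 0.985). The summed macrophage signal was 12.35 to 12.58 in NP/Sed and 12.64 to 12.99 in LP, and the count lay between 3 and 5 in the fits without 1 array and was 1 with the RNA quality covariate. Lyve1 was at 8.64, 9.03 and 9.19 in MP and 9.13, 8.95 and 8.92 in 0PP, overlapping LP (LP minus MP -0.06, adjusted p = 0.903, and LP minus 0PP -0.10, adjusted p = 0.873). Prox1, the transcription factor of lymphatic endothelium, differed by -0.84 ± 0.23 (adjusted p = 0.0824), opposite in sign to Lyve1. Of 6 lymphatic markers 1, Lyve1, passed (16.7%, against 1.8% of all genes), and the median was 0.195. The LP arrays lay wholly above NP/Sed in 3 of the 6 and wholly below in 1, Prox1 (either way in 18.7% of all genes).

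Of 37 NF-κB feedback, chemokine and acute phase genes 6 rose (16.2%) and none fell, with a median of 0.27. Ccl9, a macrophage chemokine, rose by 0.84 ± 0.18, Nfkbiz, a nuclear cofactor of NF-κB, by 0.81 ± 0.17, and Vcam1 and Osmr, an adhesion molecule and the oncostatin M receptor, by 0.76 and 0.71 (adjusted p = 0.0184, 0.0192, 0.0298 and 0.045). Ccl9, Nfkbiz, Vcam1 and Osmr all missed the threshold without NP/Sed array 2, NP/Sed array 3 or LP array 3 (up to 0.102, 0.104, 0.168 and 0.13). Nfkbiz, Vcam1 and Osmr missed it without LP array 1 as well, and Osmr also without NP/Sed array 1. The difference of Osmr went to 0.39 without LP array 3. Cxcl1, a neutrophil chemokine, gave 0.41 ± 0.09 at its probe set of highest mean (adjusted p = 0.0252) and was called at 2 others, but missed the threshold without NP/Sed array 1, NP/Sed array 2, LP array 1 or LP array 3 (up to 0.121). This list moved with single arrays more than the others did, since it had none past the threshold without NP/Sed array 2, 1 without NP/Sed array 3, LP array 1 or LP array 3, and 13 without LP array 2. With only the 2 groups in the limma fit, or with the RNA quality covariate, it had none, beside 5 by Cyber-T and 18 at an unadjusted p under 0.05 in the fit of all groups. Lcn2, a neutrophil and acute phase protein, was at 4.66, 4.45 and 4.36 on the NP/Sed arrays and 5.50, 5.23 and 9.09 on the LP arrays, so its large difference of 2.1 ± 0.60 rested on LP array 3 and was not past the threshold (adjusted p = 0.0897). The neutrophil genes S100a8 and S100a9 were highest on the same array, at 5.19, 4.95 and 6.60 and 4.72, 4.60 and 6.53 on LP arrays 1 to 3. The summed neutrophil signal was 7.49 to 7.77 in NP/Sed and 7.49 to 8.36 in LP.

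Interferon-stimulated genes gave 1 rise in 28 (3.57%, against 1.8% of all genes), Gbp6, a guanylate-binding protein. It was at 9.004, 8.50 and 8.15 on the NP/Sed arrays and 9.78, 9.47 and 11.12 on the LP arrays, with LP array 3 far above the rest (1.58 ± 0.31, adjusted p = 0.0116, and 0.0812 without NP/Sed array 3). Gbp2 and Tap1, of the same response, were at 7.71, 7.64 and 9.29 and 6.24, 6.32 and 7.85 on the LP arrays, again with array 3 highest, and did not pass the test (adjusted p = 0.4 and 0.364).

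Clock genes gave 2 rises in 19 (10.5%) and no fall by limma, with a median of 0.35. By Cyber-T 6 rose and 1 fell. In the limma fits without 1 array from 0, without NP/Sed array 3, LP array 1 or LP array 3, to 4, without NP/Sed array 2, rose, and none did with only the 2 groups in the fit or with the RNA quality covariate. In the fit of all groups 10 were higher and 2 lower at an unadjusted p under 0.05. Besides Per1, Usp2, a deubiquitinase under clock control, rose by 0.65 ± 0.14 (adjusted p = 0.0252), and missed the threshold without NP/Sed array 3, LP array 1, LP array 2 or LP array 3 (up to 0.136). Per1 was at 7.22, 7.82 and 6.90 on the NP/Sed arrays and 8.35, 7.87 and 8.14 on the LP arrays, with LP array 2 next to NP/Sed array 2. NP/Sed array 2 was the highest NP/Sed array for other members too: Dbp, an output gene of the clock, was at 8.44, 10.08 and 8.28 in NP/Sed and 9.95, 10.37 and 9.93 in LP, overlapping (1.15 ± 0.51, adjusted p = 0.329). Arntl, the positive arm of the clock, was at 7.58, 6.87 and 7.32 and 6.40, 5.89 and 6.71 (-0.92 ± 0.28, adjusted p = 0.118), lower in LP on every array but not past the threshold. Per2 gave 0.35 ± 0.16 at its probe set of highest mean (adjusted p = 0.337) and 1.53 ± 0.24 at another (adjusted p = 0.00275), so its probe sets disagreed in size. The hour of tissue collection is not given in the sources used here, and its part was not tested.

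The 9 genes called lower in LP hold a receptor, an integrin, a channel subunit and a collagen. Aplnr, the apelin receptor of endothelium and cardiomyocytes, was at 8.83, 9.06 and 9.33 on the NP/Sed arrays and 8.30, 7.97 and 7.16 on the LP arrays. The groups were apart, with LP array 3 lowest and NP/Sed array 3 highest, and the difference was -1.26 ± 0.30 (adjusted p = 0.0355), missed without NP/Sed array 2, NP/Sed array 3 or LP array 3 (up to 0.169). Itgb6, an integrin chain that activates latent TGF-β, was at 6.37, 6.56 and 6.66 and 5.44, 5.45 and 5.19, tight in both groups (-1.17 ± 0.16, adjusted p = 0.00119). Kcne1, the auxiliary subunit of the slow delayed rectifier potassium channel, was at 6.43, 7.02 and 7.27 and 6.11, 6.00 and 5.47 (-1.04 ± 0.21, adjusted p = 0.0128), and missed the threshold without the same 3 arrays as Aplnr (up to 0.089). Gja1, connexin 43 of the cell contacts between cardiomyocytes, was lower without reaching the fold limit, at 12.66, 12.79 and 12.77 and 12.19, 12.32 and 12.37 (-0.45 ± 0.07, adjusted p = 0.00319). These were the 2 of 28 ion channels and connexins that passed, both downwards (7.14%), and the median of that list was -0.06.

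Of the remaining falls, Nrep, a neuronal regeneration protein, gave -0.95 ± 0.15, Ift122, a part of the ciliary transport complex, -0.94 ± 0.21, and Auts2, a nuclear regulator, -0.88 ± 0.14 in LP minus NP/Sed (adjusted p = 0.00313, 0.0235 and 0.00253). Fam78a and Gm19277 gave -0.88 ± 0.11 and -1.13 ± 0.18 (adjusted p = 0.00082 and 0.00329). Gm19277 was at 6.91, 7.20 and 7.00 on the NP/Sed arrays and 6.01, 6.02 and 5.70 on the LP arrays, wholly apart, while its LP minus MP difference was -0.19 (adjusted p = 0.7) and its LP minus 0PP difference 0.03 (adjusted p = 0.977). Ift122 was lower in LP than in MP and in 0PP, by -0.91 and -0.95 in LP minus each (adjusted p = 0.0327 and 0.0327), although against NP/Sed it missed the threshold without NP/Sed array 2, NP/Sed array 3, LP array 1 or LP array 3 (up to 0.107).

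Among other rises, Ptgds, the prostaglandin D synthase, was at 12.14, 11.86 and 11.38 on the NP/Sed arrays and 12.64, 12.68 and 13.05 on the LP arrays, without overlap (0.99 ± 0.20, adjusted p = 0.0158, and up to 0.108 without NP/Sed array 3 or LP array 3). Hecw2, a ubiquitin ligase, was at 5.25, 5.16 and 5.05 and 6.14, 6.04 and 6.25 (0.99 ± 0.15, adjusted p = 0.00179), and Igfbp3, the main carrier of insulin-like growth factors, at 6.91, 7.46 and 7.29 and 8.37, 7.95 and 8.07 (0.91 ± 0.14, adjusted p = 0.00227). Both were apart between the groups and held in every fit without 1 array. Hecw2 passed at only 1 of its 2 probe sets, with a difference of 0.18 at the other. It missed the threshold with the RNA quality covariate (limma adjusted p = 0.0535). Foxo3, a transcription factor restrained by insulin signalling, rose by 0.47 ± 0.09, Gdf10, a ligand of the TGF-β family, by 0.57 ± 0.09, and Edn1, endothelin, by 0.45 ± 0.09 (adjusted p = 0.0137, 0.00342 and 0.00988). Foxo3 missed the threshold without NP/Sed array 3, and Edn1 without NP/Sed array 2 or LP array 1. Ubiquitin ligases and proteasome genes had 3 rises in 31 (9.68%) with a median of 0.07, and growth factor signalling 3 in 30 (10%) with a median of 0.08. Angiogenic genes had 2 rises (6.25%) and 1 fall (3.12%) in 32, against 1.8% and 0.555% of all genes.

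Genes of contraction and energy supply in cardiomyocytes were counted at their probe sets of highest mean. None of 14 cardiomyocyte markers, 28 respiratory chain genes or 32 cell cycle genes had an adjusted p under 0.05 in either direction, with medians of -0.02, 0.04 and -0.16 (limma, and none by Cyber-T). At an unadjusted p under 0.05 there were 4, 2 and 4 of them. Atp5a1, a subunit of the mitochondrial ATP synthase, gave 0.06 ± 0.06 at that probe set (adjusted p = 0.74) but was called lower at a dimmer one, with 8.26, 8.84 and 8.50 on the NP/Sed arrays and 7.55, 7.65 and 7.72 on the LP arrays (-0.89 ± 0.20, adjusted p = 0.0252), so its probe sets disagreed. Myh6, the adult myosin heavy chain, was at 14.53, 14.56 and 14.55 on the NP/Sed arrays and 14.55, 14.53 and 14.48 on the LP arrays, overlapping (-0.03 ± 0.06, adjusted p = 0.88). Tnnt2, the cardiac troponin T that marks the tissue, was at 14.43, 14.43 and 14.43 and 14.42, 14.42 and 14.41. Of 23 fetal and hypertrophy genes 1 rose (4.35%, against 1.8% of all genes), Myl1, a skeletal and embryonic myosin light chain, at 9.87, 9.91 and 9.87 and 10.44, 10.60 and 10.75 (0.72 ± 0.12, adjusted p = 0.00349). Nppa, the atrial natriuretic peptide that rises in pathological growth, was at 11.46, 11.34 and 11.29 and 10.56, 11.12 and 11.41, with LP arrays wide apart and overlapping NP/Sed (-0.33 ± 0.26, adjusted p = 0.63), and Myh7, the fetal myosin, differed by 0.66 ± 0.47 (adjusted p = 0.593). Against MP 7 of the 32 cell cycle genes were lower in LP (21.9%, against 0.901% of all genes) and against 0PP 1, with Ccna2 and Ccnb2, the cyclins of the later cycle phases, at -0.87 and -0.84 in LP minus MP (adjusted p = 0.0124 and 0.00887). Of 28 heat shock and endoplasmic reticulum chaperone genes 7 were lower in LP than in 0PP (25%, against 0.868%) and 1 rose against NP/Sed, Herpud1, a membrane protein of misfolded protein disposal, by 0.63 ± 0.13 (adjusted p = 0.0142, and up to 0.0931 without NP/Sed array 2, NP/Sed array 3 or LP array 3).

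Markers of other cell types gave the frame for these values. None of 8 red cell genes was past the threshold in LP against NP/Sed by limma or Cyber-T, with 2 at an unadjusted p under 0.05, and 4 were lower in LP than in MP (50%, against 0.901% of all genes). Alas2, the haem synthesis enzyme of red cell precursors, was at 7.19, 7.24 and 6.98 in NP/Sed, 8.56, 8.29 and 8.94 in MP, 6.92, 6.92 and 6.52 in LP and 7.68, 7.84 and 7.69 in 0PP, so LP lay just below NP/Sed and far below MP (LP minus MP -1.81, adjusted p = 1.62e-06, and LP minus 0PP -0.95, adjusted p = 0.00177). Of 14 endothelial markers 3 rose (21.4%), Vwf, Eng and Fabp4, by 0.60, 0.45 and 0.25 (adjusted p = 0.0375, 0.0398 and 0.0371), and the median was 0.04. Without NP/Sed array 2, NP/Sed array 3, LP array 1 or LP array 3 no endothelial marker passed (up to 0.193, 0.202 and 0.129). A summed signal rests on the brightest members of a list. The endothelial sum was 14.03 to 14.12 in NP/Sed and 14.22 to 14.29 in LP, of which Fabp4, also an adipocyte marker, made up 65.8% in NP/Sed, and without Fabp4 the sums overlapped at 12.43 to 12.65 and 12.55 to 12.69. The summed cardiomyocyte signal was 17.82 to 17.85 and 17.78 to 17.82. Skeletal muscle markers summed to 13.37 to 13.52 and 13.68 to 13.76, and Ckm, the muscle creatine kinase that is also on the cardiomyocyte list, made up 89.6% of the sum in NP/Sed (0.23 ± 0.07, adjusted p = 0.104). Without Ckm the sums were 10.18 to 10.23 and 10.67 to 10.92, with Myl1 the one member past the threshold, and the median difference over the list was 0.00. None of the smooth muscle, lymphocyte, neutrophil, platelet, mesothelial, atrial or nerve markers passed the threshold by limma or Cyber-T, and from 0 to 3 members of each of these lists had an unadjusted p under 0.05.

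**Figure D4:**
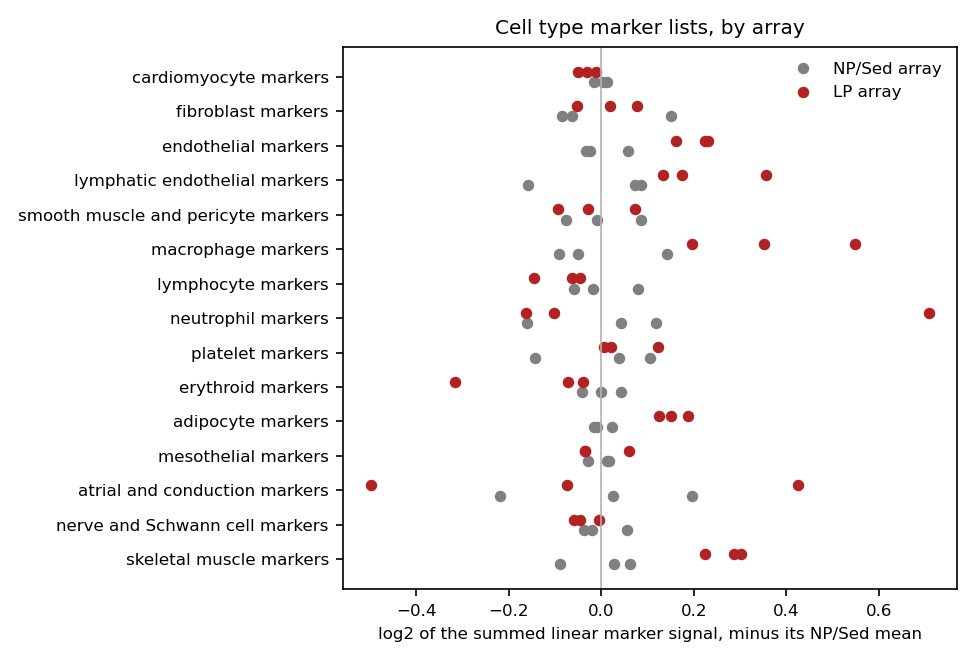
The log2 of the summed linear signal of each cell type marker list (y axis) on every NP/Sed (grey) and LP (red) array, minus its NP/Sed mean (x axis, log2). LP lies wholly above NP/Sed for the endothelial, lymphatic, macrophage, adipocyte and skeletal muscle lists, by most for macrophages, and the other lists overlap. Before the NP/Sed mean was taken off, the macrophage sums were 12.64 to 12.99 in LP against 12.35 to 12.58. The sums rest on their brightest members, Ckm for skeletal muscle (89.6% in NP/Sed), Fabp4 for endothelium (65.8%) and Lpl for adipocytes (58.7%). Without Fabp4 the endothelial sums overlap.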

How the data were processed

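Left ventricular RNA from pools of 2 to 3 mice was hybridised by the study's authors to Affymetrix mouse expression arrays. The deposited values are log2 RMA signals, which the authors computed over all 18 arrays together, and this shared quantile step makes the arrays alike in overall distribution. From these log2 values group means were fitted with limma 3.58.1 in R 4.3.3 to 45037 probe sets, after 64 Affymetrix control probe sets were left out, with 12 residual and 6.45 prior degrees of freedom and Benjamini-Hochberg adjustment over all probe sets. The main fit had no replicate block. Of the probe sets, 34945 have 1 gene in GEO's platform annotation, 932 several and 9160 none, and only the first were used for the 18193 genes. The LP group was compared with NP/Sed, MP and 0PP.

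The 38 gene lists (878 entries, 809 with a probe set) and the rules were chosen with earlier results of these data known. Genes were named where they were among the 12 largest rises and 12 largest falls called with LP arrays wholly apart from NP/Sed (9 genes fell), were 1 of up to 4 members per list ranked by p, or were named by the study for LP. Lcn2, Pdk4, Ucp3, Plin5, Cpt2, Hadha, Mlycd, Eci1, Eci2, Ahr, Ppara, Ppargc1a, Sgk1, Tsc22d3, Klf9, Nr3c1, Pgr, Col4a1, Mmp2, Lep, Adgre1, Csf1r, Vcam1, Osmr, Dbp, Myh6, Tnnt2 and Myh7, and the called genes named for their promoter letters only, were chosen after their values were seen. Alternatives were Cyber-T, rewritten in R from its published form with a posterior probability of 0.95 as the threshold and a prior weight of 10, other normalizations, filters and probe set rules, a replicate block, a covariate and leaving out each array. Fits were tested on simulated data. Promoter windows are from RefSeq (GRCm38.p6). Exercise groups were not analysed here beyond the estimate of spread.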

Additional observations from a re-analysis of the deposited data

Results flagged for a closer look

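Several genes that differed between LP and NP/Sed also differed directly, past the adjusted p threshold and the 1.75-fold limit, between LP and a neighbouring time point. LP was higher than MP by 2.16 in Angptl4, 1.26 in Acot1, 1.20 in Fmo2, 1.09 in Ehhadh, 1.05 in Inmt, 0.831 in Ier3 (an immediate early gene) and 0.829 in Ptgds, all on the log2 scale. LP was higher than 0PP by 2.17 in Angptl4, 1.38 in Acot1, 1.32 in Inmt, 1.11 in Timp4, 1.08 in Ehhadh and 1.03 in Fmo2. The LP minus MP difference was -1.03 in Col3a1, -1.01 in Mfap4 (a matrix protein of fibroblasts), -0.964 in Nrep, -0.945 in Col15a1 and -0.906 in Ift122, and the LP minus 0PP difference was -0.953 in Ift122. Against NP/Sed, Ier3 gave 0.80 (adjusted p = 0.0237) and Mfap4 -0.67 (adjusted p = 0.0394), and both missed the threshold in 4 of the 6 fits that left out 1 array: without NP/Sed array 1, NP/Sed array 3 or LP array 1 in both, without LP array 3 in Ier3 and without LP array 2 in Mfap4 (up to 0.0925 and 0.132). These tests share the LP arrays with each other and with the comparison against NP/Sed.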

How the results depend on the processing

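The numbers of genes called were 77 in LP against NP/Sed, 50 in LP against MP and 38 in LP against 0PP. Without the fold limit they were 541, 467 and 298. With the mean of a gene's probe sets they were 50 and 32 in the first 2 comparisons, and 23 and 29 once the 3' minus 5' signals of Gapdh and actin entered the fit. With only the 2 groups compared in the fit they were 19 in LP against MP and 21 in LP against 0PP. Without 1 array the counts ran from 46 (without NP/Sed array 3) to 129 (without LP array 2), from 27 (without MP array 3) to 91 (without MP array 1) and from 23 (without 0PP array 2) to 47. With the replicate block they were 76, 48 and 36. The deviations of LP and NP/Sed arrays of 1 number correlated at -0.128, 0.0903 and -0.103, and no LP array correlated best with the NP/Sed array of its own number. Deviations from a group mean cancel out within each group of 3 arrays, so these correlations cannot settle whether the array numbers pair the samples. The other alternatives stayed within 1.5 times of the main counts. Of 85 genes past the adjusted p threshold, none changed sign in any alternative, 70 passed Cyber-T, 82 a repeated quantile normalization, 83 median centring, 76 the replicate block, 32 the fit of only the 2 groups and 17 the covariate, and 16 passed everywhere they were tested. Why the covariate and the smaller fits took so many calls was not tested. The metallothionein and endothelial lists, with 3 members each past the threshold, had 2 each by Cyber-T and none with only the 2 groups or with the covariate in limma, beside 4 and 5 at an unadjusted p under 0.05 in the fit of all groups. The counts of list members under other settings, and the marker sums without the brightest member, were added after the data were seen. Arrays limit what can be said of dim genes, and 6592 of the 18193 genes had a mean log2 signal under 5 at the probe set shown.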
